A study of Rattus norvegicus with 12 samples.

Results

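The genes described here differed from the control shRNA in the same direction with both shRNAs against Sbk2 in iAM-1 cells, a rat atrial myocyte line. A gene was taken if its log2 ratio over the control shRNA ppluc was above 1, or below -1, with shRNA 1 and with shRNA 2. For each ratio 0.5 was added to the deposited group mean in CPM (assigned reads scaled to a common library total), and the median ratio of all genes was subtracted. That median was 0.26 with shRNA 1 and 0.51 with shRNA 2, so a centred ratio of 0 is the typical gene and not an unchanged CPM. Of the 32761 features in the table, 12594 reached 0.5 CPM in at least 1 of the 3 group means compared. Of these, 641 (5.09%) were taken, 260 higher (2.06%) and 381 lower (3.03%) than with ppluc. The ratios chose the genes, so they are given as a description with no test, and the ± beside them is the limma standard error from 3 libraries a group, a measure of spread only. Tests are given of the difference between the shRNAs and of that between the controls, neither of which is the contrast of the choice, though both share libraries with it.

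The study compared RNA from 12 samples of iAM-1, a cell line made from neonatal Wistar rat atrial muscle cells by conditional immortalization, in 4 groups of 3. Every sample is marked D9 and P10 (not explained in the labels), and all were differentiated without doxycycline in medium with 2% serum. All also carry a transgene for LT-tsA58, a form of the SV40 large T antigen, on a vector whose name in the table holds MHCK7, a muscle promoter. One group was untransduced, and the others received a lentiviral vector with ppluc, Sbk2 shRNA 1 or Sbk2 shRNA 2 soon after differentiation began. The vector's name in the table lists a human U6 promoter before the shRNA, followed by eGFP. iAM-1 is 1 line, so the groups show this line and not a range of donors. The labels do not say whether the 3 samples of a group were separate cultures. In the titles each control sample carries its own number, while all samples of both shRNAs carry the same one, which is not explained. In bulk RNA, fewer cells of a type and less RNA per cell cannot be told apart.

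Sbk2 belongs to a small family of kinases with an SH3-binding domain and is known as a gene of atrial muscle. Atrial myocytes contract through sarcomeres built of thick myosin and thin actin filaments, with atrial forms of the myosin light and heavy chains. Calcium for each beat is released from the sarcoplasmic reticulum, and creatine kinase and mitochondria supply the ATP. When myocytes lose this state, genes of contraction and energy use commonly go down and genes of the cell cycle, stress and matrix commonly go up.

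The libraries held 30274847 to 47517427 assigned reads, so that 1 read was worth 0.0210 to 0.0330 CPM. The vector's eGFP stood at 2417 CPM with ppluc, 3347 with shRNA 1 and 2490 with shRNA 2, against 0.105 in untransduced cells. The T antigen transcript stood at 12.1 CPM untransduced, 8.45 under ppluc, and 9.08 and 19.2 under shRNA 1 and shRNA 2. Of 7 atrial myocyte markers found in the table (Nppa, Actc1, Sln, Myl7, Myh6, Tnnt2 and Myl4), all were expressed in every group. Their group means summed to 71198 CPM with ppluc, 34079 with shRNA 1 and 20576 with shRNA 2.

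Sbk2, on chromosome 1 from 72425707 to 72433488 (Rnor_6.0), was the gene with the lowest pair of ratios. It stood at 42.6, 47.3 and 45.6 CPM in the untransduced libraries and at 29.6, 24.8 and 26.9 with ppluc. With shRNA 1 it stood at 1.09, 1.00 and 1.13 CPM, and with shRNA 2 at 0.719, 0.620 and 0.681. All 6 knockdown libraries lay below all 6 control libraries. The ppluc mean was 25.2 times the shRNA 1 mean and 40.3 times the shRNA 2 mean, for centred ratios of -4.39 ± 0.10 and -5.06 ± 0.10.

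**Figure D1:**
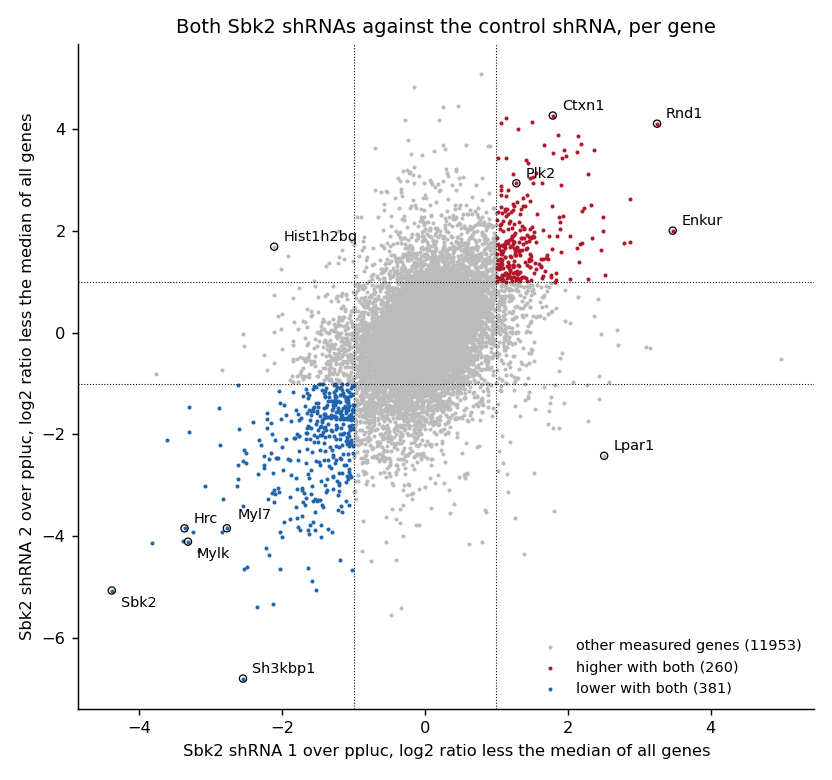
Centred log2 ratio over ppluc with shRNA 1 (x axis) and shRNA 2 (y axis) for each of 12594 measured genes, with dotted lines at 1 and -1. The 260 genes higher with both and the 381 lower with both fill the upper right and lower left corners, and Sbk2 lies at -4.39 and -5.06.

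Rnd1, which encodes an atypical small GTPase that opposes RhoA and takes down actin stress fibres, had the largest pair of positive ratios. It lies on chromosome 7 from 140349138 to 140356209. Its level was 8.78, 9.19 and 10.2 CPM in untransduced libraries and 7.33, 6.62 and 6.17 with ppluc. With shRNA 1 it was 83.1, 79.3 and 81.9 CPM, and with shRNA 2 it was 159, 178 and 189.6. The 4 groups did not overlap. The mean with shRNA 1 was 12.1 times that with ppluc and the mean with shRNA 2 was 26.2 times that with ppluc, for centred ratios of 3.25 ± 0.08 and 4.10 ± 0.08. With shRNA 2 the level exceeded the shRNA 1 level by 1.10 ± 0.08 on the log2(CPM + 0.5) scale (limma adjusted p = 2.5e-10), or by 0.85 after trimmed-mean scaling (limma adjusted p = 8.1e-09).

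Hrc encodes a histidine-rich protein that binds calcium in the lumen of the sarcoplasmic reticulum. Its level was 126, 129 and 132 CPM in untransduced libraries and 66.3, 62.3 and 61.1 with ppluc. It was 6.77, 6.92 and 6.89 CPM with shRNA 1 and 4.48, 6.29 and 6.67 with shRNA 2. The 4 groups did not overlap, and the ppluc mean was 9.21 and 10.9 times the means with shRNA 1 and shRNA 2 (centred ratios -3.37 ± 0.10 and -3.84 ± 0.10). The span of Hrc overlaps that of Ppfia3, which was itself among the higher genes at 0.167 CPM with ppluc and 1.95 and 2.08 CPM with the shRNAs. The labels do not state how reads in the overlap were counted.

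Myl7 encodes the atrial regulatory light chain of myosin. It stood at 6146, 5817 and 6063 CPM in untransduced libraries, 4897, 4771 and 5891 with ppluc, 916, 813 and 981 with shRNA 1 and 546, 464 and 532 with shRNA 2. Untransduced and ppluc libraries overlapped, while both shRNA groups lay apart from them and from each other. The ppluc mean was 5.74 times the shRNA 1 mean and 10.1 times the shRNA 2 mean. Length-scaled levels allow genes to be compared, and on that scale the ppluc level of Myl7 was 6368 TPM, against 37.1 for Hrc, 17.1 for Sbk2, 39.9 for Plk2 and 6.29 for Rnd1.

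Plk2 encodes a polo-like kinase that is induced early by serum and by p53. It stood at 66.2, 68.9 and 65.2 CPM in untransduced libraries, 85.7, 81.7 and 80.1 with ppluc, 236, 237 and 246 with shRNA 1 and 840.0, 949.8 and 910.3 with shRNA 2. The 4 groups did not overlap. Its centred ratios were 1.28 ± 0.05 and 2.93 ± 0.05, and with shRNA 2 it exceeded the shRNA 1 level by 1.90 ± 0.05 (limma adjusted p = 4.6e-16).

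**Figure D2:**
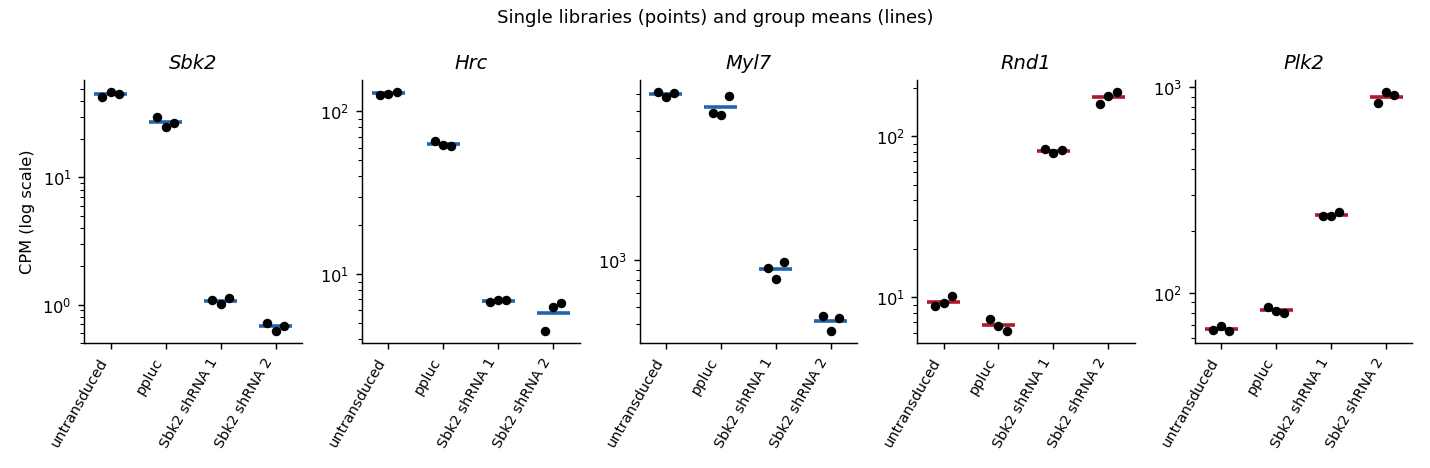
CPM on a log axis of Sbk2, Hrc, Myl7, Rnd1 and Plk2 in each of the 12 libraries, with points for libraries, and with blue (lower) and red (higher) lines for group means. Plk2 is near 82.5 CPM with ppluc, 240.0 with shRNA 1 and 900.0 with shRNA 2.

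The promoter of Plk2 is shown because it holds the cyclic AMP response element, and Creb5 and Atf3, which encode factors of that family, were among the 12 largest of the higher genes with a symbol. The element searched on both strands was TGACGTCA. The sequence comes from RefSeq (GRCr8, plus strand, chr2:43702444-43702503), with the element in capitals, 66 bases before the annotated start.
Plk2: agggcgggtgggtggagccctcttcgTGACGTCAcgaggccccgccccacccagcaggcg
RefSeq promoters, 250 bases before to 50 after the start, could be matched for 428 of the 641 genes, 178 higher and 250 lower, and for 8390 measured genes. The element was found in 6 higher promoters (3.37%), 4 lower promoters (1.6%) and 3.25% of measured genes, so the share among higher genes was close to that of measured genes.

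Both directions differed in how abundant the genes were. The median level with ppluc was 1.29 TPM for the higher genes, 25.04 TPM for the lower genes and 14.5 TPM for all measured genes. Under 1 CPM with ppluc stood 85 of the 260 higher and 18 of the 381 lower genes, and at 100 CPM or more stood 2 higher and 137 lower ones. The lower genes together took 14.8% of assigned reads in untransduced cells and 12.0% with ppluc, but 4.85% with shRNA 1 and 3.14% with shRNA 2. The higher genes took 0.251% and 0.201% in the controls and 0.668% and 1.09% with the shRNAs. The choice set the direction of these shifts from ppluc to the shRNAs, so they are a description only. CPM shares add up to a fixed total, so a fall of abundant genes lifts the CPM of all others.

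For all 260 higher genes the 6 knockdown libraries lay above the 3 ppluc libraries, which held for 42.9% of all measured genes. For 377 of the 381 lower genes they lay below, which held for 9.26% of measured genes. In limma the mean of both shRNAs called 64.4% of all tested genes higher and 18.7% lower than ppluc, or 38.3% and 38.8% after trimmed-mean scaling. The choice used this contrast, so nothing is read from these counts. Both centred ratios were beyond 2 for 12 higher and 51 lower genes, and beyond 3 for 1 higher (Rnd1) and 8 lower genes.

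Among higher genes with a gene symbol, which leaves out 2 features with clone names only, the 12 with the largest pair of ratios were led, after Rnd1, by Creb5, Ulk4, Col8a1, Tmem107 and Cep126. Creb5 had 0.887, 0.796 and 0.610 CPM with ppluc, 10.0, 11.8 and 9.80 with shRNA 1 and 11.0, 10.8 and 9.99 with shRNA 2. Its level did not differ between the shRNAs beyond their spread (0.01 ± 0.14, limma adjusted p = 0.93). Ulk4, an inactive relative of the autophagy kinases, had 0.104, 0.231 and 0.231 CPM with ppluc, 3.997, 3.64 and 3.59 with shRNA 1 and 10.8, 13.4 and 9.42 with shRNA 2, and the 3 groups did not overlap. Col8a1, a chain of collagen VIII, stood at 2.78 CPM with ppluc and at 19.0 and 25.97 with the shRNAs. The untransduced libraries of Col8a1 held 13.8, 15.3 and 12.5 CPM, so the ppluc group lay below all others for this gene. Cilp2, a matrix protein of cartilage, was likewise lowest with ppluc, at 0.247 CPM against 3.07 untransduced, and its untransduced libraries overlapped those with shRNA 1 (3.00 CPM) but not those with shRNA 2 (11.2 CPM).

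Cyfip2, a subunit of the WAVE complex that drives actin branching, stood at 0.874 CPM with ppluc, 6.94 with shRNA 1 and 24.9 with shRNA 2. Enkur, an axonemal protein, was the largest of the 12 with shRNA 1. It had 0.470, 0.128 and 0.231 CPM with ppluc, 9.28, 9.47 and 10.6 with shRNA 1 and 2.68, 4.68 and 4.41 with shRNA 2, and its level with shRNA 2 was below that with shRNA 1 by 1.25 ± 0.20 (limma adjusted p = 1.7e-05). Ubxn11, also called socius and known to bind Rnd GTPases, had 0.757, 0.668 and 0.842 CPM with ppluc, 8.46, 7.98 and 7.39 with shRNA 1 and 6.08, 7.68 and 6.10 with shRNA 2. Neither of its shRNA groups overlapped the controls.

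Among the lower genes, after Sbk2, the largest pairs of ratios were those of Tmem72, Tmem182, Hrc, Mylk, Ckm, Vil1, Prelp, Myh8, Nmrk2, Myl7 and Pgam2. Tmem72 had 7.202, 6.75 and 6.57 CPM with ppluc and from 0.0911 to 0.165 CPM with shRNA 1, which is a few reads a library. Tmem182, a membrane protein of muscle, had 8.40, 8.68 and 8.17 CPM with ppluc, 0.462, 0.455 and 0.615 with shRNA 1 and 0.229, 0.279 and 0.218 with shRNA 2. Mylk, the kinase of smooth-muscle and non-muscle myosin light chains, stood at 1323, 1320.0 and 1327 CPM with ppluc, 165, 139 and 169 with shRNA 1 and 128, 108 and 90.7 with shRNA 2. Its untransduced libraries, at 1255 to 1333 CPM, overlapped those with ppluc. Vil1, the actin bundler villin, had a mean of 12.9 CPM with ppluc, 1.27 with shRNA 1 and 0.475 with shRNA 2, and its span overlaps that of Usp37. Nmrk2, a kinase of nicotinamide riboside in muscle, stood at 3.81 CPM with ppluc, 0.220 with shRNA 1 and 0.136 with shRNA 2.

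**Figure D3:**
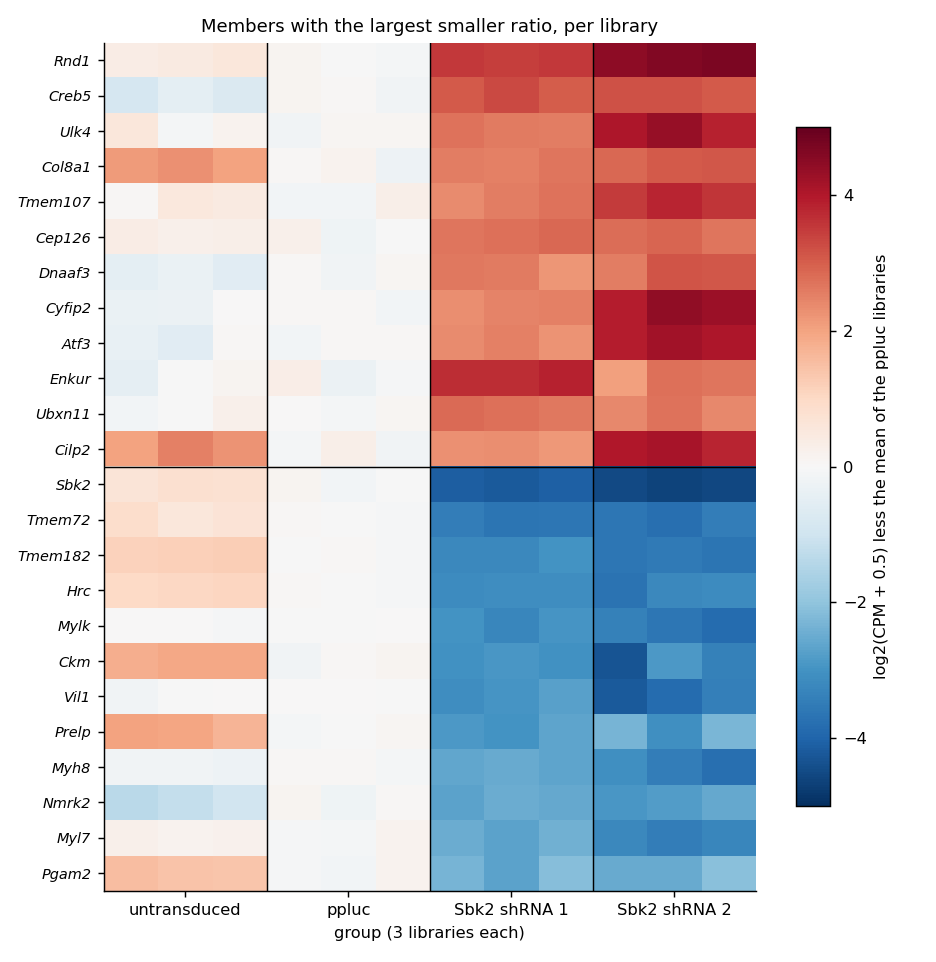
Colour gives log2(CPM + 0.5) in each library less the mean of the 3 ppluc libraries, for the 12 higher (top) and 12 lower (bottom) genes with a symbol and the largest pair of ratios. Col8a1 and Cilp2 are also high, and Ckm, Prelp and Pgam2 higher still than ppluc, in the 3 untransduced libraries.

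Genes of the sarcomere were the list with the largest share of lower genes among those with 10 or more measured genes. Of 45 measured, 17 were lower (37.8%, against 3.03% of all measured genes) and 0 higher. The median centred ratio of the 45 was -0.55 with shRNA 1 and -2.19 with shRNA 2. Myh6, the fast cardiac myosin heavy chain, stood at 26145 CPM untransduced, 15060 under ppluc, and 3104 and 851.7 under shRNA 1 and shRNA 2. Myh7, the slow form, had 137, 147 and 168 CPM with ppluc, 31.2, 28.7 and 34.5 with shRNA 1 and 7.42, 8.33 and 9.15 with shRNA 2, so that the 3 groups did not overlap. Myoz1, which anchors calcineurin at the Z-disc, had 2.97, 2.47 and 2.82 CPM with ppluc but 0.0971, 0.115 and 0.0855 in untransduced libraries. The shRNA means, 0.375 and 0.0212 CPM, thus lay above and below that of untransduced cells. Actc1, Tmod1, Myl4, Myom1, Tcap, Tnni3, Myom2, Mybphl, Smyd1, Neb, Cmya5, Csrp3 and Tpm2 made up the rest with Myl7.

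Promoters of 4 lower genes are shown because they hold a site for MEF2 or the CArG box of SRF, factors that drive muscle genes. Both were searched on both strands, and the capitals mark the match. The sequences are from RefSeq (GRCr8), for Cav3, which encodes caveolin 3 of the muscle membrane (chr4:147137889-147137950, plus strand), for the small heat shock gene Hspb7 (chr5:159010637-159010698, plus strand), for Myoz1 (chr15:3693504-3693565, plus strand) and for Fbxl22, an F-box gene of the Z-disc (chr8:75971883-75971944, minus strand). The first 3 hold a MEF2 site and the last a CArG box.
Cav3: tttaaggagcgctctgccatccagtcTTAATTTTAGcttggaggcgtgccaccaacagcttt
Hspb7: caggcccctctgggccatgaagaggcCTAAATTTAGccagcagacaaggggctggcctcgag
Myoz1: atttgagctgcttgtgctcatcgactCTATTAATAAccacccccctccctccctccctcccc
Fbxl22: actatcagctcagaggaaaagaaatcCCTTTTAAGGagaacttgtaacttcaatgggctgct
A MEF2 site was found in 13 lower promoters (5.2%), 1 higher promoter (0.562%) and 1.33% of measured genes, and in 6 of the 13 it overlapped the letters TATAAA. The CArG box was found in 8 lower promoters (3.2%), 3 higher promoters (1.69%) and 1.25% of measured genes. TATAAA itself was found in 31 lower promoters (12.4%), 8 higher promoters (4.49%) and 6.09% of measured genes. Cav3 stood at 292 CPM with ppluc, 82.8 with shRNA 1 and 49.5 with shRNA 2, and Fbxl22 at 62.4, 14.8 and 18.9. Hspb7 had 355, 378 and 369 CPM with ppluc, 122, 125 and 131 with shRNA 1 and 38.2, 41.7 and 44.9 with shRNA 2.

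Calcium handling held 6 lower genes of 34 measured (17.6%) and 0 higher, with medians of -0.58 and -0.79. Besides Hrc these were Srl, Cacna1g, Atp2a2, Atp2b4 and Trdn. Srl, sarcalumenin of the sarcoplasmic reticulum, had 1192, 1184 and 1234 CPM with ppluc, 347, 328 and 355 with shRNA 1 and 347, 283 and 298 with shRNA 2. Atp2a2, the calcium pump SERCA2, stood at 18131 CPM untransduced, 10831 under ppluc, and 4651 and 1586 under shRNA 1 and shRNA 2. Trdn, triadin of the release complex, had nearly equal centred ratios of -1.26 and -1.27 with both shRNAs (± 0.07).

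Ion channel and gap junction genes held 8 lower of 25 measured (32%) and 0 higher, with medians of -0.48 and -1.51. All 8 were channel genes. The gap junction gene Gja5 had centred ratios of opposite sign, 1.39 and -4.34. It stood at 19.8 CPM with ppluc, 62.8 with shRNA 1 and 0.925 with shRNA 2. Hcn4, the main pacemaker channel, had 311, 303 and 296 CPM with ppluc, 79.4, 90.9 and 77.6 with shRNA 1 and 10.7, 8.89 and 11.2 with shRNA 2, and its untransduced libraries, at 137 to 153, lay between those with ppluc and shRNA 1. Kcnq1, a potassium channel of repolarization, stood at 52.5 CPM with ppluc, 19.4 with shRNA 1 and 7.401 with shRNA 2. Kcnh2, another, stood at 539.6 CPM with ppluc, 208 with shRNA 1 and 213 with shRNA 2, and its shRNA libraries overlapped (0.00 ± 0.10, limma adjusted p = 0.97, or -0.25 with limma adjusted p = 0.049 after trimmed-mean scaling). Kcnk3, an atrial leak potassium channel, Abcc8, Kcnj11, Hcn2 and Kcnk2 were the others. Kcnj11 and Abcc8 encode the pore and the regulatory subunit of one ATP-sensitive potassium channel and lie 4.58 kb apart on chromosome 1. Their levels were 42.2 and 47.2 CPM with ppluc, 23.3 and 24.3 with shRNA 1 and 8.10 and 8.29 with shRNA 2.

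Atrial identity genes held 7 lower of 22 (31.8%) and 0 higher, with medians of -0.54 and -1.51. With Sbk2, Myl7, Myh6, Myl4 and Mybphl these were Corin, the protease that activates atrial natriuretic peptide, and Bmp10, an atrial growth factor. Corin had 281, 292 and 286 CPM with ppluc, 104, 99.5 and 106 with shRNA 1 and 34.1, 29.3 and 36.6 with shRNA 2, and the 3 groups did not overlap. Bmp10 stood at 58.5 CPM untransduced, 171 under ppluc, and 95.7 and 54.7 under shRNA 1 and shRNA 2, so that its shRNA 1 mean lay above the untransduced mean. Of 22 measured cardiac transcription factors 0 were among the shared genes in either direction, and their medians were -0.13 and -0.68. Of all measured genes 5.09% were shared, so nothing is read from a 0 in so short a list.

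Genes of the actin cytoskeleton and targets of SRF held 6 lower of 27 (22.2%) and 0 higher, with medians of -0.55 and -1.16. These were Mylk, Vil1, Tmsb10, Acta2, Fhl1 and Myl9. Tmsb10, a thymosin that binds actin monomers, had 122, 115 and 147 CPM with ppluc, 46.3, 39.9 and 48.2 with shRNA 1 and 55.3, 56.5 and 53.1 with shRNA 2, with the shRNA groups below the controls. Acta2, smooth-muscle actin, stood at 6885 CPM with ppluc, 3112 with shRNA 1 and 2379 with shRNA 2. The list of Rnd and small GTPase signalling held 2 higher (5.88%) and 3 lower (8.82%) of 34, with medians of -0.28 and -0.37. Diaph3, a formin acting behind small GTPases, had 1.49, 1.77 and 1.45 CPM with ppluc, 8.85, 8.23 and 9.18 with shRNA 1 and 7.71, 8.70 and 8.52 with shRNA 2. With Rnd1 it was one of the higher genes, and Mylk, Rasd1 and Arhgap35 were the lower ones. Arhgap35, which encodes p190RhoGAP, an effector of Rnd proteins, stood at 401 CPM with ppluc, 179.6 with shRNA 1 and 126 with shRNA 2.

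Muscle kinases held 5 lower of 20 (25%) and 0 higher, with medians of -0.42 and -1.39, namely Sbk2, Mylk, Alpk2, Tnni3k and Dmpk. Alpk2, an alpha-kinase of the heart, had 6.47, 7.395 and 7.41 CPM with ppluc, 1.39, 1.70 and 2.29 with shRNA 1 and 0.980, 1.15 and 1.33 with shRNA 2. Tnni3k, a cardiac kinase that binds troponin I, stood at 53.1 CPM with ppluc, 22.8 with shRNA 1 and 9.55 with shRNA 2.

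Energy genes were also among the lower ones. Of 32 measured genes of oxidative phosphorylation and creatine, 11 were lower (34.4%) and 0 higher, with medians of -0.80 and -1.04, and 30 of the 32 had both centred ratios below 0. Ckm, muscle creatine kinase, had 45.7, 49.3 and 49.3 CPM in untransduced libraries, 11.0, 13.2 and 13.9 with ppluc, 1.12, 1.24 and 1.11 with shRNA 1 and 0.163, 1.30 and 0.762 with shRNA 2. Mb, myoglobin, stood at 10.8 CPM untransduced, 1.71 under ppluc, and 0.122 and 0.0703 under shRNA 1 and shRNA 2. Perm1, a regulator of muscle mitochondria, stood at 16.9, 3.24, 0.543 and 0.737 CPM in the same order of groups. Ckmt2, the mitochondrial creatine kinase, had 3.601, 4.37 and 4.10 CPM with ppluc and 0.229 to 1.34 CPM over the 6 knockdown libraries. In these 4 genes the ppluc mean was itself below the untransduced mean, with log2 ratios from -1.66 (Ckmt2) to -2.36 (Mb). The others were Cox8b, Sdhd, Ndufv1, Ckb, Ndufs1, Atp5b and Atp5a1. Of 13 measured mitochondrially encoded genes, 2, Mt-nd5 and Mt-cyb, were among the lower genes and 0 among the higher ones. Of all measured genes 3.03% were lower and 2.06% higher, and nothing is read from counts in so short a list.

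Glycolysis and glucose genes held 5 lower of 29 (17.2%) and 0 higher, with medians of -0.59 and -0.91. Eno3, the muscle enolase, had 209, 207 and 214 CPM with ppluc, 57.6, 62.6 and 65.4 with shRNA 1 and 18.5, 16.6 and 19.0 with shRNA 2. Pgam2, the muscle phosphoglycerate mutase, stood at 9.81 CPM with ppluc and at 1.499 and 1.503 CPM with the shRNAs. Slc2a4, the insulin-regulated glucose transporter, stood at 2.47, 0.457 and 0.245 CPM, and Pygm, the muscle glycogen phosphorylase, at 50.5, 16.0 and 7.25 CPM, with ppluc, shRNA 1 and shRNA 2. Ldhb was the fifth. Fatty acid oxidation held 4 lower of 26 (15.4%) and 0 higher, with medians of -0.43 and -0.82. Acadl, a long-chain acyl-CoA dehydrogenase, had 264, 260 and 262 CPM with ppluc, 111, 108 and 118 with shRNA 1 and 113, 119.8 and 125 with shRNA 2, and untransduced libraries of 257 to 268 CPM. Decr1, Fabp3 and Pdk4 were the others.

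Small heat shock proteins, chaperones of the myofibril, made up all 4 lower genes among 21 measured heat shock genes (19%), with 0 higher and medians of -0.60 and -0.17. Besides Hspb7 they were Hspb6, Hspb1 and Hspb8. Hspb1 stood at 471 CPM with ppluc, 236 with shRNA 1 and 118 with shRNA 2. Hspb6 stood at 97.5, 33.3 and 34.5 CPM and did not differ between the shRNAs beyond their spread (0.05 ± 0.07, limma adjusted p = 0.52), though it passed after trimmed-mean scaling (-0.20, limma adjusted p = 0.016).

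**Figure D4:**
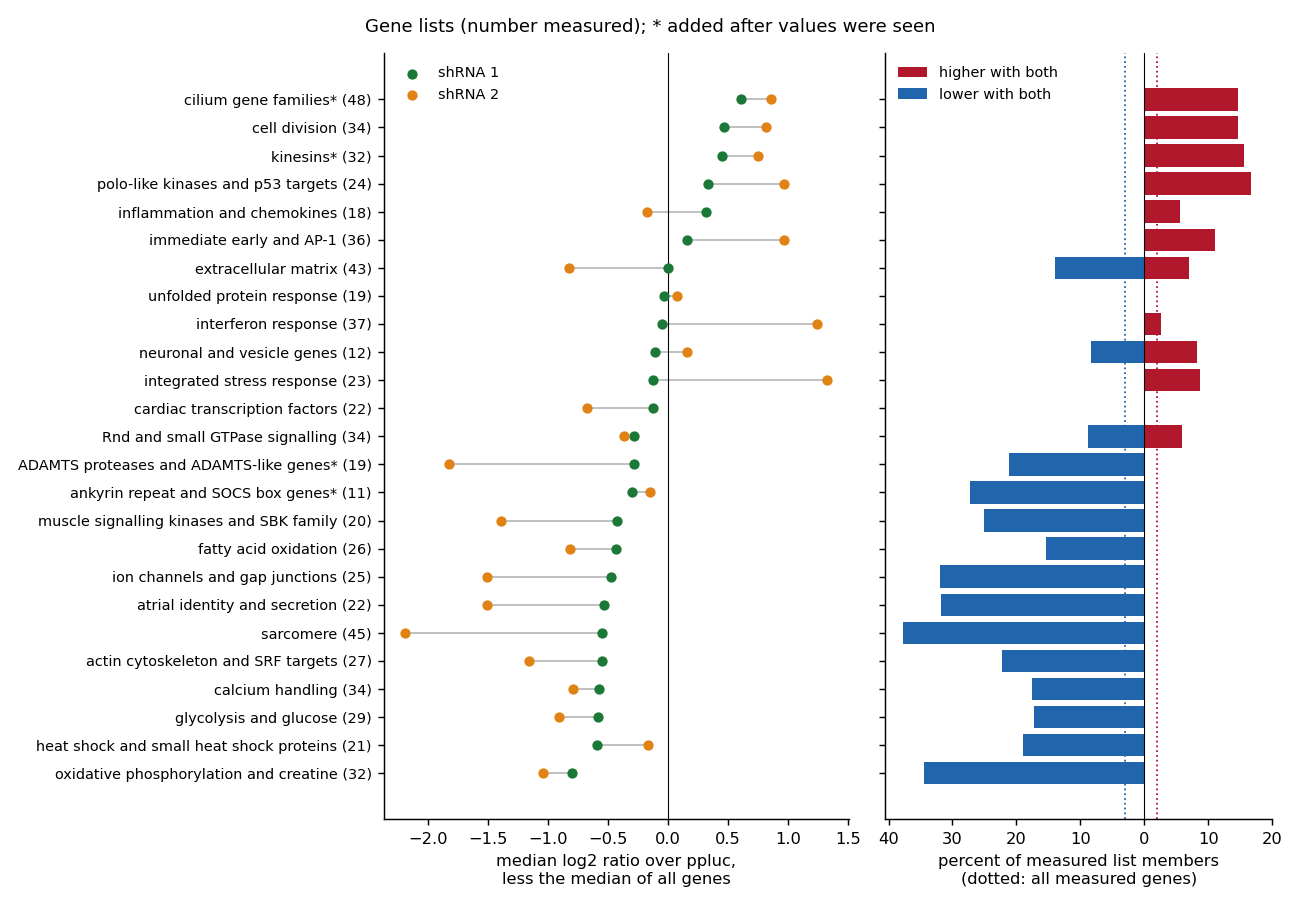
Left, median centred log2 ratio of each gene list with shRNA 1 (green) and shRNA 2 (orange). Right, the percent of its measured genes among the lower (left of 0) and higher (right of 0) shared genes, with dotted lines at 3.03% and 2.06% for all measured genes. The sarcomere list reaches 37.8% lower, and the interferon list moves from -0.05 with shRNA 1 to 1.25 with shRNA 2.

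Matrix genes lay on both sides, with 3 higher (6.98%) and 6 lower (14%) of 43 and medians of 0.00 and -0.83. Higher were Col8a1, Cilp2 and Plat, tissue plasminogen activator, which stood at 3.601 CPM with ppluc, 18.3 with shRNA 1 and 69.5 with shRNA 2. Lower were Col1a1, Cilp, Eln, Bgn, Col3a1 and Spp1. Eln, elastin, had 1802, 1917 and 1759.9 CPM with ppluc, 496, 455 and 491 with shRNA 1 and 163, 104 and 109 with shRNA 2, and the 3 groups did not overlap. Cilp stood at 31.9 CPM untransduced, 92.4 under ppluc, and 21.3 and 2.65 under shRNA 1 and shRNA 2. Col1a1, a chain of collagen I, had 149, 139.9 and 115 CPM with ppluc, 24.4, 28.5 and 28.0 with shRNA 1 and 18, 20.2 and 14.5 with shRNA 2.

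Small leucine-rich proteoglycans, which bind collagen fibrils, were a family picked out after the values were seen. Only 4 of its genes reached the minimum level, and all 4 (Fmod, Prelp, Bgn and Optc) were lower, and Dcn and Lum, its best known members, had at most 0.0157 CPM in any group. Fmod, fibromodulin, had 1290.3, 1345 and 1235 CPM in untransduced libraries, 1012, 1048 and 996 with ppluc, 214, 189.6 and 217 with shRNA 1 and 319.6, 229 and 205 with shRNA 2. Prelp stood at 28.3 CPM untransduced, 7.24 under ppluc, and 0.595 and 0.856 under shRNA 1 and shRNA 2. Bgn, biglycan, stood at 1029 CPM with ppluc, 403 with shRNA 1 and 445 with shRNA 2. Optc, opticin, lies 3.16 kb from Prelp on chromosome 13 and had 0.835 CPM with ppluc, 0.218 with shRNA 1 and 0.0490 with shRNA 2.

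On the higher side, genes of cell division had 5 of 34 measured (14.7%, against 2.06% of all measured genes) and 0 lower, with medians of 0.47 and 0.82. These were Cdk1, the mitotic kinase, Kif11, a spindle motor, Top2a, Mybl2 and Ccne2. Cdk1 had 0.444, 0.385 and 0.442 CPM with ppluc, 2.84, 2.34 and 1.77 with shRNA 1 and 5.36, 4.89 and 4.95 with shRNA 2. Kif11 had 1.10, 0.796 and 0.652 CPM with ppluc, 3.47, 4.10 and 3.10 with shRNA 1 and 8.85, 10.0 and 8.41 with shRNA 2. For both genes the 3 groups did not overlap, and the levels stayed low. The T antigen of the line, a known driver of cell division, was at 8.45, 9.08 and 19.2 CPM in these groups, and its part in the result was not tested.

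Polo-like kinases and p53 targets held 4 higher of 24 (16.7%) and 0 lower, with medians of 0.34 and 0.97, namely Plk2, Plk1, Gdf15 and Tnfrsf10b. Gdf15, a secreted stress signal, had 1.70, 2.62 and 2.06 CPM with ppluc, 10.3, 11.3 and 11.2 with shRNA 1 and 41.5, 47.7 and 73.2 with shRNA 2, without overlap. Plk1, the mitotic member, stood at 0.406 CPM with ppluc, 2.15 with shRNA 1 and 2.37 with shRNA 2. Immediate early and AP-1 genes held 4 higher of 36 (11.1%) and 0 lower, with medians of 0.16 and 0.96. Atf3, a transcription factor gene of stress, had 1.44, 1.77 and 1.77 CPM with ppluc, 10.6, 11.9 and 9.63 with shRNA 1 and 32.5, 39.2 and 34.6 with shRNA 2. Jun had 86.2, 93.2 and 84.3 CPM with ppluc, 231, 252 and 245 with shRNA 1 and 345, 353 and 351 with shRNA 2. Dusp4, a phosphatase of ERK and JNK, stood at 7.76, 24.1 and 52.5 CPM in the same groups. Myc stood at 1.19, 3.71 and 41.1 CPM.

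The integrated stress response held 2 higher of 23 (8.7%), Gdf15 and Stc2, and 0 lower, with medians of -0.13 and 1.33. Stc2, stanniocalcin 2, was higher with shRNA 1 than with shRNA 2, at 26.4, 25.4 and 25.8 CPM against 14.8, 18.03 and 21.3, with 4.70, 4.29 and 4.38 with ppluc. Of 19 genes of the unfolded protein response 0 were shared in either direction, with medians of -0.04 and 0.08. As 5.09% of all measured genes were shared, nothing is read from that 0. The inflammation list held 1 higher of 18 (5.56%), Cxcl16, a membrane-bound chemokine, at 15.0 CPM with ppluc, 44.0 with shRNA 1 and 49.9 with shRNA 2, and medians of 0.31 and -0.17. Neuronal and vesicle genes held 1 of each of 12 (8.33%), Ctxn1 higher (0.772, 4.75 and 34.2 CPM) and Syt1 lower (65.7, 35.4 and 39.3 CPM), with medians of -0.11 and 0.15.

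The interferon list held 1 higher gene of 37 (2.7%, close to the background of 2.06%) and 0 lower, with medians of -0.05 with shRNA 1 and 1.25 with shRNA 2. That gene was Ifi47, a GTPase induced by interferon, with 2.87, 2.26 and 3.599 CPM with ppluc, 9.38, 8.65 and 9.40 with shRNA 1 and 14.2, 15.7 and 14.6 with shRNA 2. Ddx60, an antiviral helicase (0.555, 3.48 and 18.7 CPM), and Ifi44l (1.58, 6.05 and 16.1 CPM) were also among the higher genes but not in the list, and were picked after their values were seen. Their promoters are shown for the interferon-stimulated response element, searched on both strands as GAAA, any 2 bases and GAAA. They come from RefSeq (GRCr8), Ddx60 from chr16:33208877-33208938 (minus strand) and Ifi44l from chr2:243328606-243328667 (plus strand). In Ifi44l the element is on the opposite strand, so the capitals show its reverse complement.
Ddx60: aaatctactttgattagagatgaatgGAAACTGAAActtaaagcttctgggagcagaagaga
Ifi44l: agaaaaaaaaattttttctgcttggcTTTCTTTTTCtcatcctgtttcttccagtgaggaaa
The element was found in 9 higher promoters (5.06%), 3 lower promoters (1.2%) and 2.74% of measured genes.

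Genes of the cilium were a further group on the higher side, picked by family names after the values were seen. Cilia are microtubule-based projections, and quiescent cells commonly carry a single primary cilium. Of 48 measured genes of the Cfap, Dnah, Dnai, Dnal, Dnaaf, Rsph, Ift, Bbs, Nphp, Tctn, Mks and Tekt families, 7 were higher (14.6%) and 0 lower. The medians were 0.61 and 0.86, and 34 of the 48 had both centred ratios above 0. Cfap20 and Cfap36 passed the threshold with opposite signs. With ppluc, shRNA 1 and shRNA 2, Cfap20 stood at 24.0, 76.4 and 16.9 CPM and Cfap36 at 29.1, 17.1 and 110.7 CPM. Ift122, a subunit of intraflagellar transport, had 25.5, 23.3 and 24.1 CPM with ppluc, 73.5, 75.4 and 73.4 with shRNA 1 and 96.0, 102.8 and 105 with shRNA 2, without overlap. Nphp4, of the gate at the cilium's base, stood at 6.96 CPM with ppluc, 24.4 with shRNA 1 and 37.7 with shRNA 2. Rsph1, a radial spoke protein, had 0.287, 0.128 and 0.316 CPM with ppluc, 1.88, 2.28 and 2.71 with shRNA 1 and 3.17, 4.15 and 4.06 with shRNA 2. Bbs1, Bbs7 and Ift22 were between 5.87 and 10.6 CPM with ppluc and between 18.6 and 35.6 CPM with the shRNAs. Dnaaf3, which helps assemble axonemal dyneins, stood at 0.532 CPM with ppluc, 5.26 with shRNA 1 and 7.48 with shRNA 2. Its span overlaps by 0.197 kb that of Tnni3, which was lower with both, at 528, 270.3 and 66.5 CPM.

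Outside these families, Tmem107, of the transition zone at the cilium's base, had 0.548, 0.539 and 0.926 CPM with ppluc, 5.52, 6.25 and 7.07 with shRNA 1 and 12.7, 15.8 and 13.4 with shRNA 2. Cep126, a centrosomal protein needed for cilia, had 1.33, 0.822 and 1.05 CPM with ppluc, 9.35, 9.99 and 10.8 with shRNA 1 and 10.2, 11.3 and 9.39 with shRNA 2. The shRNA groups of Tmem107 did not overlap each other, while those of Cep126 did. The X-box is the site of RFX factors, which drive cilium genes. Promoters with an X-box (in capitals, searched on both strands) are shown from RefSeq (GRCr8) for Tmem107 (chr10:54271164-54271203, plus strand), Kif18a, a mitotic kinesin (chr3:116218911-116218976, plus strand), and Oscp1 (chr5:143619076-143619141, plus strand).
Tmem107: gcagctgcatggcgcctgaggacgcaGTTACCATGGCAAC
Kif18a: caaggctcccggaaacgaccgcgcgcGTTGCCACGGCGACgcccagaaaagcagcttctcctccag
Oscp1: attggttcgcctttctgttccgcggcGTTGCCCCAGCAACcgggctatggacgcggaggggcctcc
The X-box was found in 5 higher promoters (2.81%; Dyrk3, Kif18a, Tmem107, Mok and Oscp1), 1 lower promoter (0.4%, Iqsec1) and 1.35% of measured genes. Kif18a stood at 0.721, 3.32 and 6.57 CPM and Oscp1 at 4.41, 15.9 and 19.3 CPM with ppluc, shRNA 1 and shRNA 2.

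The choice fixed a shared direction with both shRNAs, so only the size of the change is compared here. The centred ratio was larger in size with shRNA 2 for 185 of the 260 higher genes and 309 of the 381 lower genes. The same held for 8480 of all 12594 measured genes, so a larger ratio with shRNA 2 was not particular to the set. Median centred ratios were 1.29 with shRNA 1 and 1.68 with shRNA 2 on the higher side, and -1.40 and -1.996 on the lower side. In limma, 183 of the 260 higher genes were above and 14 below in shRNA 2 against shRNA 1, where 53.2% of all tested genes were above and 27.7% below. After trimmed-mean scaling the counts were 146 above and 32 below, with 39.4% above and 38.4% below for all genes. Of the 377 lower genes in the fit, 80 were above and 197 below in shRNA 2, or 36 and 238 after scaling.

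**Figure D5:**
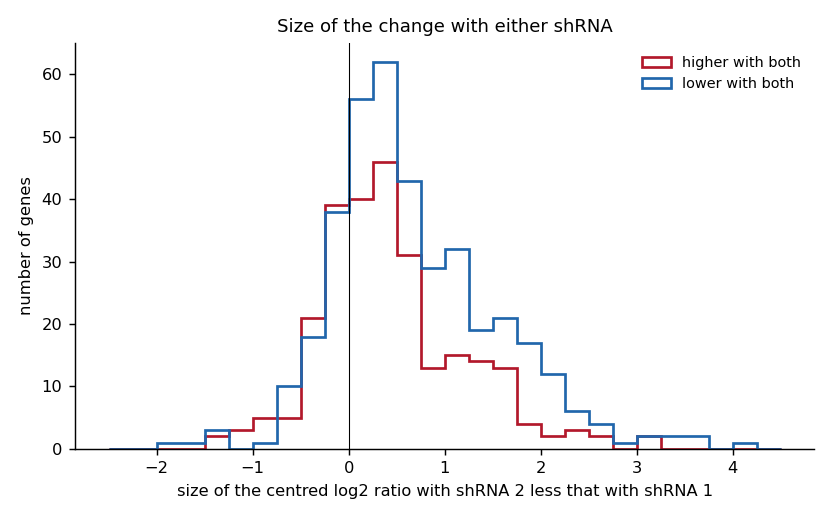
Number of genes (y axis) by the size of the centred log2 ratio with shRNA 2 less that with shRNA 1 (x axis), for the 260 higher and 381 lower genes. Values above 0 are larger with shRNA 2, which holds for 185 and 309 genes, and the lower genes reach 4.24 (Sh3kbp1).

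The largest differences between the shRNAs within the set lay on the lower side. Sh3kbp1, an endocytic adaptor that binds c-Cbl, had 305, 281 and 301 CPM with ppluc, 58.6, 59.8 and 61.3 with shRNA 1 and 2.32, 3.44 and 4.14 with shRNA 2, a difference of -4.24 ± 0.11 between the centred ratios. Smtnl2, Rasd1, Sned1, Ntn1 and Hcn4 followed, with differences of -3.64, -3.53, -3.29, -3.27 and -3.20. Rasd1, a dexamethasone-induced Ras protein, stood at 201 CPM with ppluc, 83.1 with shRNA 1 and 8.13 with shRNA 2. These 6 genes were picked for this difference, so it is given with no test. The smallest differences were those of Il1rap, Perm1, Polk, Ska3, Stk11ip and Trdn. Il1rap, a subunit of the interleukin 1 receptor, stood at 4.02 CPM with ppluc, 13.8 with shRNA 1 and 16.4 with shRNA 2, and Stk11ip at 21.9, 65.8 and 78.4 CPM.

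The shared genes made up a larger share of those beyond the threshold with shRNA 1 than of those with shRNA 2. Above 1 stood 538 genes with shRNA 1 and 1365 with shRNA 2, and the 260 shared ones were 48.3% and 19.0% of these. Below -1 stood 682 and 1725 genes, of which the 381 were 55.9% and 22.1%. In 50 genes both ratios were beyond the threshold with opposite signs, 37 higher with shRNA 1 and lower with shRNA 2, and 13 the reverse. Lpar1, a receptor for lysophosphatidic acid, stood at 5.51 CPM with ppluc, 40.4 with shRNA 1 and 1.10 with shRNA 2. Nat8l stood at 1.55, 8.47 and 0.292 CPM. In the reverse direction stood Cox6a2 (3.97, 0.917 and 17.6 CPM), the histone gene Hist1h2bq (27.3, 7.16 and 127 CPM) and Mthfd2, an enzyme of mitochondrial folate metabolism (24.9, 11.4 and 92.4 CPM).

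The controls also differed from each other in some of these genes, and the comparison of ppluc with untransduced cells shares the ppluc libraries with the ratios above. In limma 60 of the 260 higher genes were above and 83 below in ppluc, where 24.9% of all tested genes were above and 32.2% below (28.8% and 28.4% after trimmed-mean scaling). Of the lower genes 102 were above and 169 below. The median log2 ratio of ppluc over untransduced was -0.06 for the higher genes, -0.14 for the lower genes and -0.03 for all measured genes. Both shRNA means lay above both control means for 259 of the 260 higher genes, against 46.3% of all measured genes, and below both for 356 of the 381 lower genes, against 10.3%. The choice had already set these genes beyond ppluc, so nothing is read from these counts. Col8a1, at -2.13, and Cilp2, at -2.26, were higher genes whose ppluc level lay below the untransduced level on the log2 scale, and a low ppluc level also raises the ratios that chose them.

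At the threshold, the genes just inside on the higher side were Tmem67 (1.13 and 1.00), Efna3 (1.00 and 1.85) and PVR (1.82 and 1.00), as centred ratios with shRNA 1 and shRNA 2. Just outside were Elmod3 (1.19 and 0.996), Rpap3 (0.996 and 1.14) and Trim34 (1.00 and 1.24), whose smaller ratio was a little under 1. On the lower side AABR07015081.1 (-1.0 and -1.42), Ctdspl (-1.0 and -1.03) and Wisp1 (-1.0 and -2.37) lay just inside, and Kcng2 (-0.998 and -3.13), Pik3r3 (-1.0 and -1.08) and Slc16a10 (-0.999 and -1.71) just outside. Tmem67, a protein of the cilium's base, had 7.62, 7.91 and 7.49 CPM with ppluc, 20.0, 23.2 and 19.5 with shRNA 1 and 20.2, 24.0 and 24.2 with shRNA 2.

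Some of the genes were neighbours on the chromosome. Among 12536 pairs of measured features next to each other, 25 pairs were both lower (0.199%), 10 both higher (0.0798%) and 16 on opposite sides (0.128%). Of the single features, 3.02% were lower and 2.07% higher. Whether any of these pair counts exceeds a random placement was not tested. The lower pairs included Myh3, Myh4 and Myh8, the embryonic, fast and perinatal skeletal myosins, which follow each other among the measured features of chromosome 10. Between Myh3 and Myh4 lies a gap of 68.7 kb. Their levels were 6.80, 46.9 and 23.3 CPM with ppluc, 2.68, 13.9 and 3.47 with shRNA 1 and 0.254, 4.65 and 1.75 with shRNA 2, for Myh3, Myh4 and Myh8. Myh4 and Myh8 overlap in the annotation and are close in sequence, so their split of reads is uncertain. The lower pairs also included Col4a4 and Col4a3, 0.373 kb apart, and Sbk2 and Ssc5d, 10.3 kb apart. Ssc5d stood at 145 CPM with ppluc, 76.2 with shRNA 1 and 98.4 with shRNA 2, where 1 library, at 143 CPM, lay among those with ppluc (137 to 158). In all, 57 of the 641 genes (18 higher, 39 lower) overlap another measured feature. The share of overlaps among all measured features was not counted, so nothing is read from this number.

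Markers of other cell types were low or at 0 in most cases. Among 6 fibroblast markers, Lum and Tcf21 were at 0 in every group and Dcn at 0 in all but ppluc (0.0157 CPM), while the summed level was 116 to 149 CPM in ppluc libraries, 24.97 to 28.9 with shRNA 1 and 14.7 to 20.4 with shRNA 2, nearly all of it Col1a1. Of 4 endothelial markers Cdh5 and Emcn were at 0, and the sum, nearly all Kdr, was 141 to 152, 208 to 223 and 55.3 to 97.2 CPM. Of 5 smooth muscle and pericyte markers Rgs5 was at 0, and the group means, mostly Acta2, summed to 7285, 3379 and 2481 CPM. Myh11, the smooth muscle myosin of that list, went against the sum, at 2.67 CPM with ppluc, 2.02 with shRNA 1 and 17.6 with shRNA 2. Of 5 leukocyte markers Ptprc and Cd3e were at 0 and the sum was at most 1.21 CPM. Epicardial markers, mainly Upk3b, summed to 29.3 to 33.3, 38.1 to 41.8 and 4.87 to 7.35 CPM with ppluc, shRNA 1 and shRNA 2. Col1a1 and Acta2 are themselves among the lower genes, and the part of other cell types in their levels was not tested.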

How the data were processed

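RNA-seq libraries of 12 samples (polyA-selected, stranded, paired reads of 150 bp, per the labels' protocols) were analysed in 4 groups of 3. The authors deposited CPM values as means of each group, and TPM values in the same way, per the file headers. Loci are in Rnor_6.0, per the submitters' processing notes, which also name DESeq2 without saying its use; no label names the aligner or the counting. Starts in the deposited locus table count from 0, and 1 was added.

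The whole reads of the 12 libraries were recovered from the CPM means by arithmetic: totals from the smallest steps, then triples of whole reads that return the stored mean. In each group this returned 1999 to 2000 of 2000 values tried among low genes, 99.8 to 99.9% of features had 1 triple, and 0 of 3000 shifted control values per group had any. The 10 members with several triples (Myh6, Actc1, Atp2a2, Acta2, Myl4, Gpx3, Mt-nd5, Atp5b, Mt-cyb and Atp5a1) are given, and enter marker sums printed here, by group mean only; counts of calls hold them with 1 of their triples. Library letters order the totals. The method and limma were tested on simulated data.

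Ratios used the deposited group means with a pseudocount of 0.5. The tests used limma 3.58.1 (R 4.3.3) on log2(CPM + 0.5) of the recovered libraries, with 1 mean per group and a trend, for the 12493 genes reaching 0.5 CPM in 3 libraries or more, and Benjamini-Hochberg adjusted p under 0.05. Such a fold change understates that of low genes. The p-values measure only the spread between these samples, which may be technical. Alternatives were pseudocounts, filters, scaling, TPM, voom weights, left-out libraries and another control.

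The rule, the gene lists and the named genes were chosen with earlier results of these data known. Named are the 5 markers, the 12 genes with a symbol in each direction with the largest smaller ratio (at least 1 CPM on the higher side), up to 4 per list, those nearest the threshold, up to 3 of each opposite pattern, and 6 with the largest and 6 with the smallest difference between shRNAs. Other names, and the families of cilium genes, small leucine-rich proteoglycans, kinesins, aquaporins, SOCS box and ADAMTS genes, were picked after values were seen. The shRNA target sequences were not used here, and some genes are not reported here. Python 3.11.15, numpy 2.4.6, pandas 2.3.3 and matplotlib 3.10.9 did the rest.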

Additional observations from a re-analysis of the deposited data

Results flagged for a closer look

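For 22 of the genes named by the rules above, the effects of the shRNAs over ppluc differed by 2 or more on the log2 scale after centring. Limma passed each difference as deposited and after trimmed-mean scaling. Genes named outside those rules, among them Gja5, Adamts15, Cfap20 and Cfap36, are not counted here. Values are shRNA 2 minus shRNA 1. Opposite signs in the shRNAs were shown by Lpar1 (-4.93), Nat8l (-3.75), Hist1h2bq (3.80), Cox6a2 (3.43) and Mthfd2 (2.71). Lower with both, and further so with shRNA 2, were Sh3kbp1 (-4.24), Smtnl2 (-3.64), Rasd1 (-3.53), Sned1 (-3.29), Ntn1 (-3.27), Hcn4 (-3.20), Cilp (-3.04), Adamts12 (-2.61), Cacna1g (-2.33), Aqp1 (-2.31), Eln (-2.19), Myh7 (-2.11) and Eno3 (-2.0). Kcng2, just outside the threshold with shRNA 1, differed by -2.13. Higher with both, and further so with shRNA 2, were Myc (3.05), Ctxn1 (2.47) and Gdf15 (2.01). The genes with opposite signs, and Sh3kbp1, Smtnl2, Rasd1, Sned1, Ntn1 and Hcn4, were named for this difference, so for them it is a description and the limma call supports nothing.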

How the results depend on the processing

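The number of shared genes depended on how ratios were scaled and on low values. A pseudocount of 0.1 gave 435 higher genes, a pseudocount of 1 kept 180 of the 260 (69.2%), and the TPM table gave 237, of which 166 were among the 260 (63.8%); no minimum level gave 492 higher and 246 lower. Without centring there were 638 higher and 198 lower. With untransduced cells in place of ppluc, an alternative chosen after seeing the data, there were 495 higher and 647 lower, which held 172 of the 260 (66.2% of these and 34.7% of the 495) and 280 of the 381 (73.5% of these and 43.3% of the 647); there the mean centred ratio of Wisp1 was 0.0775, reversed in sign. Leaving out each library in turn gave 255 to 268 higher and 376 to 392 lower genes. Between the shRNAs, trimmed-mean scaling moved the higher genes called lower from 14 to 32 and the lower genes called higher from 80 to 36, and against ppluc it gave 4785 higher and 4844 lower of all genes; voom weights, a pseudocount of 1, no filter and left-out libraries kept every such count within 1.5 times. With a library left out, the higher genes called above in shRNA 2 were 171 to 192 and called below 14 to 16, and the lower genes 69 to 82 and 180 to 201. Of 1897 values for 112 named genes, 1429 moved by less than the spread, 467 by more and 1 reversed. No paired analysis was possible because the deposited columns are means and the recovered libraries carry no replicate number. Depth limits genes near 0.1 CPM, which is 3 reads or so in these libraries.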

Other observations

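Further families, picked after their values were seen, had shared genes on 1 side only, though not all of their other genes went that way. Of 32 measured kinesins 5 were higher with both shRNAs (15.6%) and 0 lower: Kif11, Kif18a, Kif18b, Kif22 and Kifc1, motors of the spindle and chromosomes. Kif18b stood at 0.401 CPM with ppluc, 2.03 with shRNA 1 and 6.25 with shRNA 2. Of 5 measured aquaporins, which are water channels, 3 were lower. Aqp4 stood at 34.3 CPM untransduced, 10.9 under ppluc, and 0.619 and 3.26 under shRNA 1 and shRNA 2, Aqp1 at 182, 84.2, 47.8 and 11.1 CPM, and Aqp7 at 16.9, 14.7, 5.15 and 1.57 CPM.

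ADAMTS proteases and their relatives held 4 lower of 19 (21.1%) and 0 higher, with medians of -0.28 with shRNA 1 and -1.83 with shRNA 2. Adamts12 stood at 26.4 CPM with ppluc, 7.35 with shRNA 1 and 1.03 with shRNA 2, and Adamtsl2 at 702, 329 and 162 CPM. Adamts15 went opposite ways with the shRNAs, at 67.7, 194.6 and 7.33 CPM (centred ratios 1.26 and -3.63). Genes with ankyrin repeats and a SOCS box, substrate receptors of ubiquitin ligases, held 3 lower of 11 (27.3%; Asb12, Asb14 and Asb15), all under 8 CPM with ppluc. Axl and Tyro3, receptor kinases for Gas6 that share a family, were both higher. Axl stood at 26.3 CPM with ppluc, 93.8 with shRNA 1 and 90.6 with shRNA 2, and Tyro3 at 7.79, 40.1 and 24.0 CPM. This pair was picked after its values were seen, and other genes of the family are not reported here.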
